A study of Caenorhabditis elegans with 2 samples.

Results

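The cytoplasmic ribosomal protein genes of *Caenorhabditis elegans* were examined for occupancy by SNPC-4. They were the 78 protein-coding genes, of 19985 in all, whose Ensembl symbol is *rpl-* or *rps-* followed by a number, with 47 genes of the large subunit (*rpl*) and 31 of the small subunit (*rps*). SNPC-4 had been mapped by chromatin immunoprecipitation and sequencing (ChIP-seq) in 1 group of samples, mixed-sex young adult whole worms of strain OP179, unc-119(ed3) III; wgIs179, with 2 biological replicates and sonicated chromatin. This line stably expresses SNPC-4 fused to GFP-FLAG at its C-terminus, so the protein measured is the tagged one, and all cells of the worm are mixed. A possible control experiment that the labels name is not analysed here, and neither is ChIP of any other protein. The files were lists of peaks with no read counts, so the depth is unknown, and with a single group no test between samples could be made.

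Ribosomal proteins are made in matched amounts for the large and small subunits of the ribosome, and cells that grow or make eggs transcribe these genes strongly and together. SNPC-4 is the worm homologue of a subunit of SNAPc, the complex that recruits RNA polymerases to genes of small nuclear RNA (snRNA) and, in nematodes, to those of spliced leader RNA; it is also known for its role at piRNA genes. Spliced leaders are joined to the front of many worm messenger RNAs, those of ribosomal proteins among them. The annotated 5′ end of such a gene can therefore be the site of splicing, with the start of transcription lying upstream of it. How far these ends were apart at the genes described here was not tested.

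SNPC-4 peaks stood at most ribosomal protein genes. A peak summit lay within 500 bp of the annotated 5′ end at 56 of the 78 genes (71.8%, Wilson 95% interval 61.0 to 80.6), against 1102 of all 19985 protein-coding genes, or 5.51%. This count used the 2345 peaks that the authors selected by the irreproducible discovery rate (IDR), called the thresholded list from here on. A gene with a peak in it need not have an entry in both replicate lists, as *mrps-15* shows. The large subunit had 34 of 47 genes with a summit (72.3%, 58.2 to 83.1) and the small subunit 22 of 31 (71.0%, 53.4 to 83.9), so the intervals of the subunits overlapped almost fully. Ribosomal protein genes made up 0.390% of protein-coding genes and 5.08% of those with a summit. The intervals here and below cover counting error over genes only.

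The 2 replicates gave like shares. Among the 2345 strongest entries of each replicate's own list, 47 ribosomal protein genes had a summit in replicate 1 (60.3%, against 5.02% of all protein-coding genes) and 50 in replicate 2 (64.1%, against 5.06%), a mean of 62.2% ± 2.72 (SD, n = 2). Large subunit genes stood at 60.6% ± 4.51 and small subunit genes at 64.5% in both replicates (SD, n = 2 each). In the whole replicate lists, which by label mix peaks with background, 72 genes had an entry in replicate 1 (92.3%, against 29.8%) and 74 in replicate 2 (94.9%, against 32.8%). The pooled list of the same kind had 73 (93.6%, against 30%). All 56 genes with a thresholded summit had an entry in both replicate lists, 36 of them among the strongest entries of both, 18 of 1 only and 2 of neither.

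The strongest peaks stood near genes of the large subunit. Among the genes described singly, *rpl-3* had the highest signal. The signal is the value the authors' peak caller gave each peak; its scale is not stated, and it ranks peaks within a list. *rpl-3*, whose product reaches towards the peptidyl transferase centre where peptide bonds form, had 373 (200.2 in replicate 1 and 186 in replicate 2), and *rpl-15*, which encodes a protein at the core of the large subunit, had 349.7 (218 and 152). Both genes stood well apart from the next, *rpl-29*, at 219 (127 and 99.5). *rpl-35*, a gene for a protein beside the exit of the peptide tunnel, had 187 (98.7 and 90.3), and *rpl-22*, whose product binds RNA, had 171 (107 and 69.9). In each of these genes both replicates gave a value far above the median of the strongest entries, 35.8 in replicate 1 and 29.9 in replicate 2.

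The sequence under the summits of *rpl-3*, *rpl-15*, *rpl-29* and *rpl-35* shows where these strong peaks were centred. Each run spans 151 bases centred on the summit, taken from the RefSeq genome WBcel235, which is the build ce11 of the peak lists, and is written 5′ to 3′ on the strand of the gene. The capitals mark 6 words of 8 bases that recur at ribosomal protein summits and are described further on.
*rpl-3* (chrIII:3867518-3867668, plus strand): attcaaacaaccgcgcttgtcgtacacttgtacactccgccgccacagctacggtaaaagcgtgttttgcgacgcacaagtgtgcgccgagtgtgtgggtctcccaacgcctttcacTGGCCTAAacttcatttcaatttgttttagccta
*rpl-15* (chrIV:654849-654999, minus strand): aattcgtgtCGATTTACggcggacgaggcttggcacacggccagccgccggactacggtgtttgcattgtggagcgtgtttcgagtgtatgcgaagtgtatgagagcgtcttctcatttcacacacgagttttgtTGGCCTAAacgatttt
*rpl-29* (chrIV:13881889-13882039, plus strand): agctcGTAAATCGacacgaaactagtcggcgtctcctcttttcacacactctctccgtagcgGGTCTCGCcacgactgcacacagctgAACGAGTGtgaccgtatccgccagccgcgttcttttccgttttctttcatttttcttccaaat
*rpl-35* (chrIII:7854633-7854783, plus strand): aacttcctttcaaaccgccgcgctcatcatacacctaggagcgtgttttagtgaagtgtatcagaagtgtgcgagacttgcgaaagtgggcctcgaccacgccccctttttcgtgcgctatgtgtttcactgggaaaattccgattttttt
The *rpl-29* window holds 3 of the words, that of *rpl-15* holds 2, and that of *rpl-3* holds 1. The *rpl-35* window holds none of them.

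Among small subunit genes, *rps-26* was highest at 158 (108 in replicate 1 and 63.3 in replicate 2), followed by *rps-28* at 138 (94.1 and 51.7) and *rps-19* at 135 (69.2 and 84.6). The products of the first pair line the channel by which messenger RNA leaves the small subunit, and *rps-19* is the worm homologue of a gene mutated in human Diamond-Blackfan anaemia. The *rps-26* summit lay 438 bp upstream of that gene but 19 bp from the 5′ end of *tmem-107*, which is transcribed the other way, and 80 bp from that of the snoRNA gene *F39B2.14*, so the peak cannot be assigned to 1 of these genes by distance. Below them came *rps-1*, *rps-8*, *rps-25*, *rps-20*, *rps-12* and *rps-4*, with signals between 83.4 and 101. In the large subunit, *rpl-18*, *rpl-4*, *rpl-12*, *rpl-26*, *rpl-41.2*, *rpl-38*, *rpl-23*, *rpl-13*, *rpl-14* and *rpl-21* lay between 83.4 and 126. Of these, *rpl-4* encodes a protein that lines the peptide tunnel, *rpl-12* one at the base of the stalk to which elongation factors dock, and *rpl-41.2* a very short peptide.

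Over all 56 genes the signal had a median of 76.7, a lowest value of 41.8 at *rpl-31* and quartiles of 58.7 and 101. The 1046 other protein-coding genes with a summit had a median of 61.3, and the whole list had 60.9. Large subunit genes had a median of 79.8 and small subunit genes 71.9, and the highest small subunit signal, 158, was under those of 6 large subunit genes. Signals of 38 genes were above the median of the list and those of 18 were not.

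The replicates ordered the genes only loosely. The Spearman correlation of their signals over the 56 genes was 0.477, as a description over genes that share both libraries. Each signal is that of the highest entry within 500 bp. At 11 of the 56 genes these entries lay over 100 bp apart, so the values there may belong to different peaks. The ratio of replicate 1 to replicate 2 had a median of 1.27, with 35 genes higher in replicate 1, and ran from 0.157 to 4.08. At the lowest ratio stood *rpl-24.2*, with 6.52 in replicate 1 and 41.5 in replicate 2; its RefSeq symbol is *rsl-24D1*, the name of a ribosome assembly factor and not of a ribosomal protein. *rps-13* had 15.5 and 55.2, and at the other end *rps-22* had 51.1 and 12.5. Differences in signal between single genes were not tested.

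**Figure D1:**
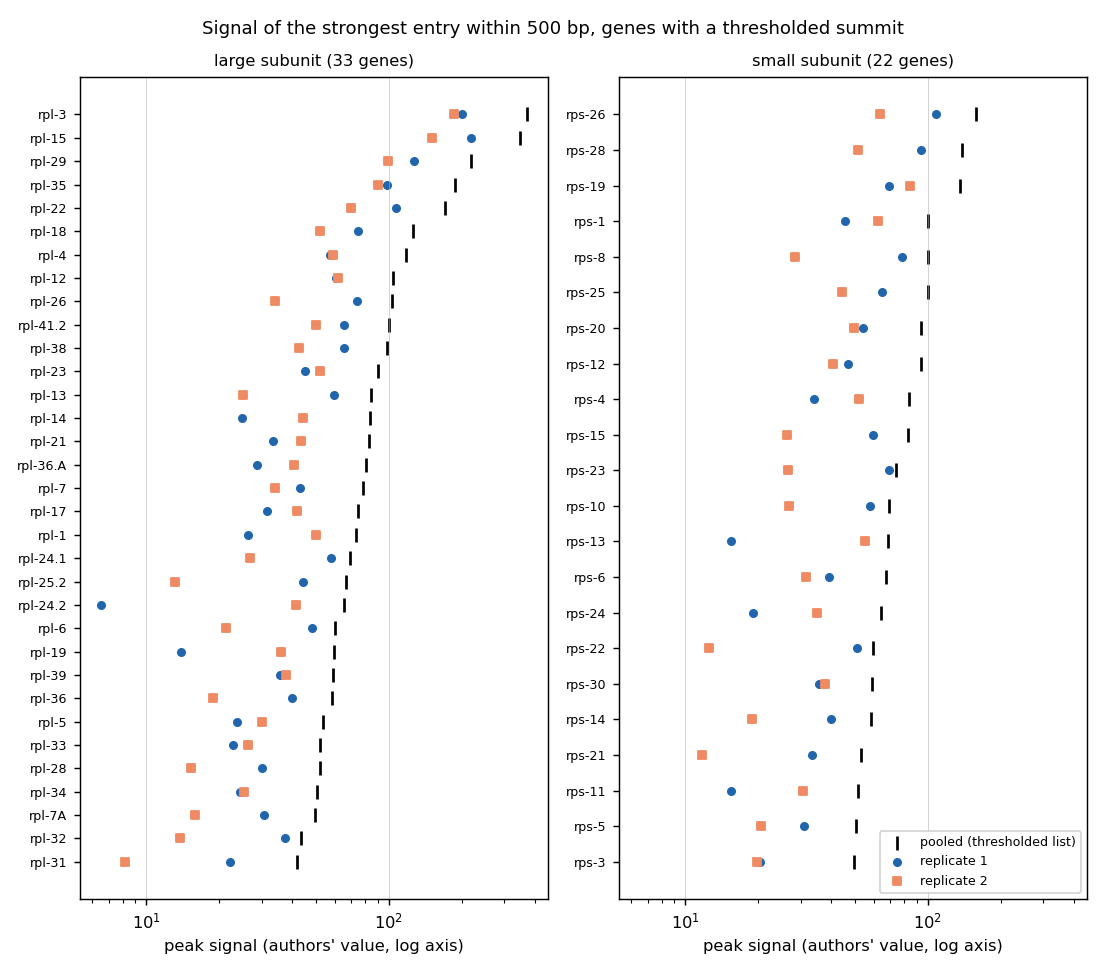
Signal (the authors' peak caller value, log axis) of the strongest entry within 500 bp of the 5′ end for 33 large and all 22 small subunit genes with a thresholded summit; bars are the thresholded list, circles replicate 1 and squares replicate 2. *rpl-3* and *rpl-15* stand apart at 373 and 349.7, and the replicates are farthest apart at *rpl-24.2*.

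The summits sat in front of the genes, 43 of the 56 between 200 and 400 bp upstream. At 55 of the 56 genes the nearest summit lay upstream of the 5′ end, at a median of 285.5 bp with quartiles of 250.75 and 343.5 bp. Of the 56, 52 (92.9%) lay 150 to 450 bp upstream, against 565 of the 1046 other protein-coding genes with a summit (54.0%); over all protein-coding genes, with or without a summit, 3.09% had their nearest summit in that range. The other genes had a median of 178.5 bp upstream, with quartiles of 82.25 and 285.75 bp, and 86.0% of them had the summit upstream. The median was 280 bp in the large subunit and 294 bp in the small subunit. The replicate lists were measured otherwise, at the entry with the highest signal within 500 bp and not at the nearest one. Their medians were 299.5 bp in replicate 1 and 282 bp in replicate 2, a mean of 290.75 ± 12.4 bp (SD, n = 2). These highest entries of the replicates at the same gene were 57 bp apart in the median, with 45 of 56 within 100 bp, and 828 bp apart at most.

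Few ribosomal protein summits lay near the 5′ end itself. Within 200 bp there were 7 genes of 78 (8.97%, against 2.59% of all protein-coding genes), and within 1000 bp there were 79.5% (against 7.48%). The 3 genes with a summit under 150 bp away were *rpl-12* at 31 bp, *rpl-7A* at 51 bp and *rps-22* at 129 bp upstream. The single downstream summit was that of *rpl-19*, 332 bp inside the gene in its own intron. At the edge of the window, *rps-28* (443 bp), *rps-26* (438 bp) and *rpl-35* (426 bp) lay just inside, and *rps-18* (540 bp upstream, signal 133), *rps-27* (569 bp upstream, signal 82.1) and *rpl-27* (673 bp downstream, signal 105) just outside. The assignment is uncertain at *rps-24* and *rpl-7A*, where 64.1% and 76.8% of the 32-base stretches within 200 bp of the summit occur at a single place in the genome; the other 54 genes reach at least 80%.

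**Figure D2:**
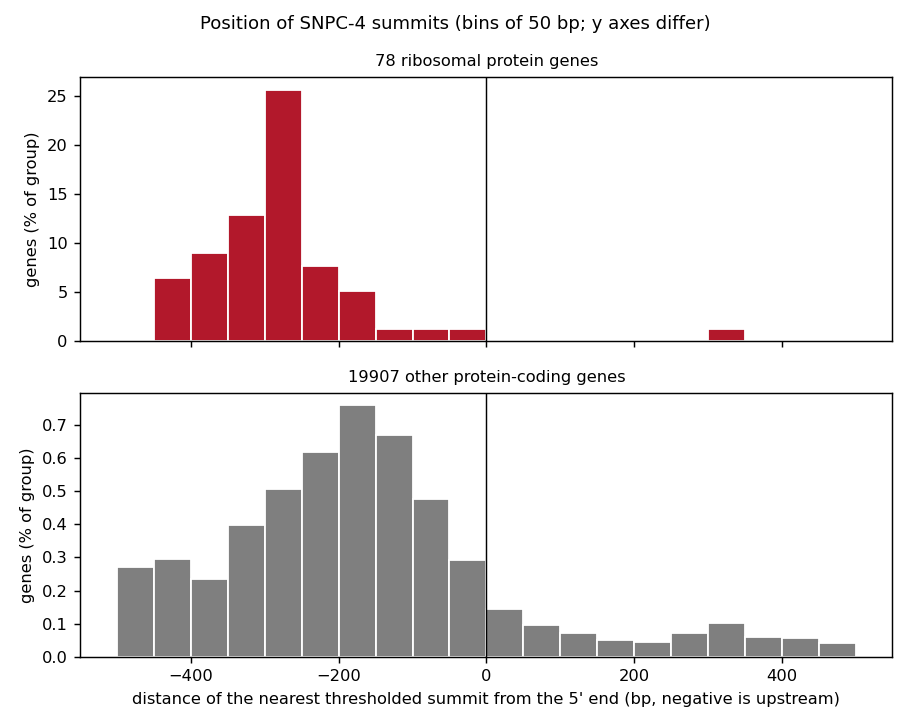
Distance of the nearest thresholded summit from the annotated 5′ end (bp, negative is upstream, bins of 50 bp), as a percent of the 78 ribosomal protein genes above and of the 19907 other protein-coding genes below, on y axes of different scale. Ribosomal protein summits peak at 250 to 300 bp upstream, and those of the other genes nearer to the 5′ end.

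Many ribosomal protein genes, with a summit or without one, had an upstream neighbour that points away from them. Of the 56 summits, 54 lay outside protein-coding genes and 2 in introns. The nearest upstream gene ran in the opposite direction at 39 of the 56 genes, and likewise at 14 of the 22 ribosomal protein genes without a summit. Some of these neighbours were far off, as at *rps-28* (14392 bp). For this count and the next ones the share over all protein-coding genes is not given here. They describe the surroundings of these genes and show no trait of the summits. The summit was within 500 bp of another protein-coding 5′ end at 33 genes. It was nearer to that end at 21, among them *rpl-4*, *rpl-22*, *rpl-26*, *rps-12*, *rps-19*, *rps-20* and *rps-26*. Because of this, 3 peaks served pairs of ribosomal protein genes, *rpl-39* with *rps-30* (signal 58.7), *rps-10* with *rpl-24.1* (69.5) and *rps-14* with *rpl-36* (58.6), and the 56 genes had 55 distinct peaks beside them. Those genes do not count as independent, and which of 2 divergent genes a peak belongs to was not tested.

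The words marked above were found by comparing the bases within 75 bp of the 55 ribosomal protein summits with those around the 2263 other nuclear summits of the thresholded list. The 6 words with the greatest difference in share that have no run of 5 bases in common, on either strand, were kept. They were chosen for that difference, so their shares at these summits are a description. GGTCTCGC occurred at 17 of the 55 summits against 3.40% of the others, AAAGGCGC at 12 against 2.34%, AACGAGTG at 11 against 1.19%, and CTGAGTAT, TGGCCTAA and GTAAATCG at 10 each against 0.530%, 0.574% and 0.795%. At least 1 of them stood at 41 of the 55 summits (74.5%, against 7.73% of the others), and at least 2 at 21 (38.2%, against 0.972%). In the 500 bp upstream of the 5′ end, the 6 words in the same order occurred at 22, 18, 15, 13, 18 and 16 of the 78 genes, against 2.27%, 3.15%, 1.21%, 0.719%, 1.27% and 2.21% of other protein-coding genes.

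The likeness ran on beyond the 8 bases, as the fourth word shows. Sites of 7 of its 10 summits are given here in a stretch of 30 bases on the strand that reads CTGAGTAT, with the word in capitals; *rps-30* and *rpl-39* share theirs.
*rps-22* (chrIII:1950421-1950450, plus strand): tggctgcttggCTGAGTATtcaacgttaat
*rps-30* (chrV:7776334-7776363, plus strand): tgcgtacttgcCTGAGTATtcaacgttaat
*rpl-7A* (chrIV:4390619-4390648, plus strand): acagtcgttgaCTGAGTATtcaacgtttga
*rpl-32* (chrII:9057428-9057457, plus strand): aaggtcgttggCTGAGTATtcaacgttttg
*rps-3* (chrIII:6206469-6206498, plus strand): ctggccgttgaCTGAGTATtcaacgcttca
*rpl-23* (chrIII:5706391-5706420, minus strand): cgaatagttggCTGAGTATcaaacgttaat
*rpl-6* (chrIII:7208113-7208142, minus strand): gggcttgttgcCTGAGTATtcaatgcctcg
The last 3 of these sites, at *rps-3*, *rpl-23* and *rpl-6*, depart from the others after the word. Bases that at least 75% of the sites share were TTGN before the word and TCAACGTT after it. The longer forms here and below were read from the sites at these same summits. Their higher share at ribosomal protein genes follows in part from that choice and is a description. This longer form, on either strand, was found within 500 bp upstream of 8 ribosomal protein genes (*rpl-13*, *rpl-32*, *rpl-39*, *rpl-7A*, *rps-0*, *rps-20*, *rps-22* and *rps-30*) and of 4 of the 19895 other nuclear protein-coding genes. The 4 were *ekl-4*, *polh-1*, *rbg-3* and *set-21*, and each of them starts within 1000 bp of a ribosomal protein gene on the other strand. Of the 55 summits 6 held it, out of the 10 with the word, against 1 of the 2263 others.

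The third word had a longer form of the same kind, held by 8 of its 11 summits. Sites of 7 of the 11 are shown here on the strand that reads AACGAGTG, and those at *rpl-29* and *rpl-36.A* lack the form.
*rpl-21* (chrIII:8130515-8130544, minus strand): gacacacttgaAACGAGTGttaccgtactg
*rpl-34* (chrIV:12268554-12268583, plus strand): gacacatggtaAACGAGTGttaccgtagtc
*rps-13* (chrIII:6375158-6375187, minus strand): tacacacgcaaAACGAGTGttaccgtatac
*rps-23* (chrIV:12391286-12391315, plus strand): tgaacagctgaAACGAGTGttaccgtacct
*rpl-6* (chrIII:7208063-7208092, plus strand): aacacacgtaaAACGAGTGtcaccgtagtc
*rpl-29* (chrIV:13881966-13881995, plus strand): gcacacagctgAACGAGTGtgaccgtatcc
*rpl-36.A* (chrII:11097504-11097533, minus strand): ggcacacaacaAACGAGTGggacagtatgg
The shared bases were ACANNNNA before the word and TNACCGTA after it. That form was found upstream of 8 ribosomal protein genes (10.3%) and of 20 other genes (0.101%), 6 of which start within 1000 bp of a ribosomal protein gene on the other strand. The 8 include *rpl-24.1* and *rps-10*, which share a peak. The first word, GGTCTCGC, was mostly preceded by G and followed by NNCGA. That form was found upstream of 15 ribosomal protein genes (19.2%) and of 185 other genes (0.930%), and was held by 11 of the 17 summits with the word. Of the 5 sites shown, that of *rps-4* lacks the G before the word.
*rpl-29* (chrIV:13881940-13881969, plus strand): tctccgtagcgGGTCTCGCcacgactgcac
*rpl-26* (chrII:8602508-8602537, plus strand): cccctgcggtgGGTCTCGCagcgatctccc
*rps-8* (chrIV:7314124-7314153, minus strand): cacgagtgaagGGTCTCGCcgcgatctctc
*rpl-6* (chrIII:7208089-7208118, plus strand): agtcagacgcgGGTCTCGCcgcgacgaggc
*rps-4* (chrIV:7084907-7084936, minus strand): tacagctgccaGGTCTCGCagcgaaattga
The sixth word was mostly preceded by C and followed by AC, upstream of 10 ribosomal protein genes (12.8%) and 183 others (0.920%). The 2 remaining longer forms stood upstream of 11 and 9 ribosomal protein genes and of 0.789% and 0.0402% of other genes.

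The words differed in their median place around the summit. They were chosen within 75 bp of these summits, so a median close to the summit follows in part from the choice. GGTCTCGC, AAAGGCGC, AACGAGTG and CTGAGTAT had medians within 14 bp of it, at -5, -14, 9 and 11 bp along the gene. AAAGGCGC was spread widely, with quartiles of -42.5 and 26.75 bp. TGGCCTAA lay towards the gene, at a median of 63.5 bp (quartiles 49 and 96.5). GTAAATCG lay away from the gene, at -48 bp (quartiles -62 and -20.5). Each word occurred on both strands.

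**Figure D3:**
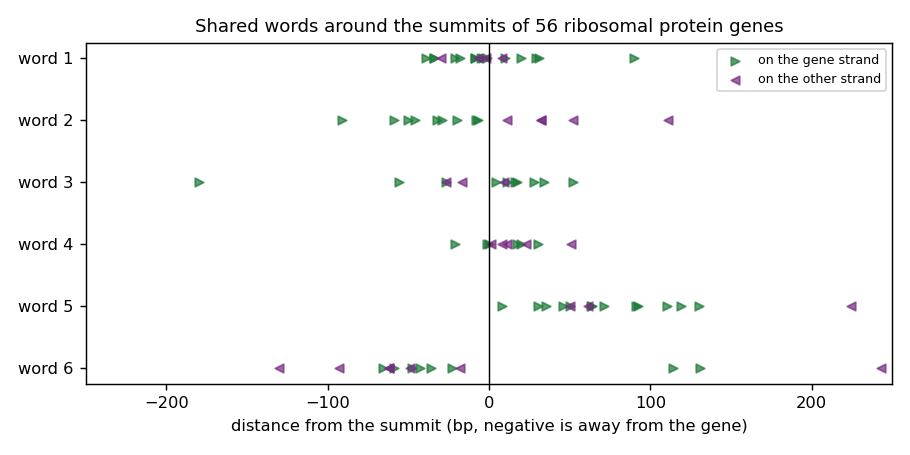
Places of the 6 words, in the order GGTCTCGC, AAAGGCGC, AACGAGTG, CTGAGTAT, TGGCCTAA and GTAAATCG from word 1 to word 6, around the summits of the 56 ribosomal protein genes (x axis in bp, negative is away from the gene; right-pointing marks are on the gene strand, left-pointing marks on the other). Word 5 lies mostly to the right of the summit and word 6 mostly to the left.

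The number of words went with the presence of a peak. Of the 27 ribosomal protein genes with 2 or more of the words upstream, 25 had a summit, of the 34 with 1 word 24 had one, and of the 17 with none 7 did. The words were chosen at the summits of these genes, so this order follows in part from the choice. Most other protein-coding genes with a summit entered that choice as part of the contrast, but 29 of them had no peak other than one shared with a ribosomal protein gene, whose sequence helped to choose the words. Among them 23.3% of 223 genes with 2 or more words had a summit, 11.3% of 1672 with 1 word and 4.41% of 18000 with none. Leaving out peaks shared with a ribosomal protein gene, these were 17.9%, 10.7% and 4.37%. Of the 22 ribosomal protein genes without a thresholded summit, whose sequence did not choose the words, 12 had at least 1 word upstream (54.5%), against 9.53% of other genes.

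**Figure D4:**
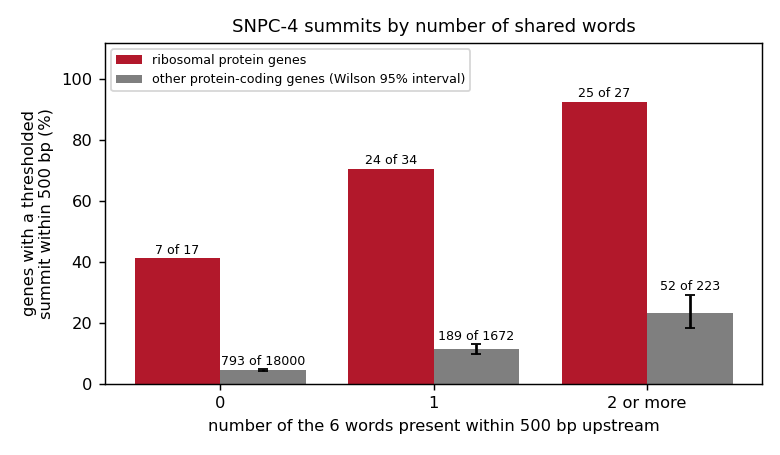
Percent of genes with a thresholded summit within 500 bp, by the number of the 6 words within 500 bp upstream, for ribosomal protein genes (red) and other protein-coding genes (grey, with Wilson 95% intervals); counts stand above the bars. The share is higher with more words in both groups, up to 25 of 27 and 52 of 223.

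Words known from other classes of genes were also counted. In the 300 bases from 250 before to 50 after the 5′ end, on both strands, CTGTTTCA, the upstream motif of piRNA genes, occurred at 2 of 78 genes (2.56%, against 2.32% of all protein-coding genes). CGGAACCC and TACCGACA, words taken from snRNA and spliced leader peaks of these same data, occurred at 1 gene each (1.28%, against 0.265% and 0.250%). The B box of tRNA genes occurred at 0 of 78, which allows a share of up to 3.85% (3 counts of 78), against 0.165%. TATAAA occurred at 21 (26.9%, against 37.9%). These 300 bases leave out 43 of the 56 summits. Within 75 bp of the 55 distinct ribosomal protein summits, CTGTTTCA, CGGAACCC, TACCGACA and the B box each occurred at 0, which allows a share of up to 5.45% (3 counts of 55), against 4.24%, 6.45%, 0.663% and 6.89% of the 2263 other nuclear summits. TATAAA occurred there at 3 of the 55 (5.45%, against 11.9%).

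Small nucleolar RNA (snoRNA) genes, which guide modification of ribosomal RNA, often lie inside ribosomal protein genes. Of the 78 genes, 13 had a snoRNA gene in the gene body or within 500 bp of it and none had a tRNA gene there; they were *rpl-2*, *rpl-4*, *rpl-6*, *rpl-7*, *rpl-7A*, *rpl-15*, *rpl-24.1*, *rpl-26*, *rps-4*, *rps-12*, *rps-13*, *rps-23* and *rps-29*. All 19 snoRNA genes concerned lay inside the body on the same strand, 80 to 953 bp downstream of the 5′ end. A summit stood at 11 of the 13 (84.6%, 57.8 to 95.7), against 45 of the 65 genes without one (69.2%, 57.2 to 79.1). The same split over all protein-coding genes gave 19% with a snoRNA or tRNA gene nearby and 5.05% without. The split goes by the gene body and not by the summit. The 65 genes still include *rps-26* and *rps-10*, whose summits lay 80 and 410 bp from a snoRNA 5′ end. Whether snoRNA genes have a part in these peaks was not tested.

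Most of the summits had no 5′ end of these RNA classes within 500 bp. The nearest 5′ end of a snoRNA, tRNA, snRNA or spliced leader gene was 20013.5 bp away in the median. It was within 500 bp at 7 of the 56 genes and nearer than the ribosomal protein 5′ end at 1, *rps-26*. The median covers all 56 genes, 45 of them with no snoRNA gene in the gene body or within 500 bp of it. Among these 45 the summit of *rps-26* was 80 bp from a snoRNA 5′ end and that of *rps-10* 410 bp. At the 11 with a snoRNA gene inside, the distance was shorter, from 247 bp at *rps-12* to 1020 bp at *rps-4*. No ribosomal protein gene had an snRNA or spliced leader gene nearby. Of the 775 nuclear peaks near protein-coding genes with no such RNA 5′ end within 500 bp, 49 were near ribosomal protein genes (6.32%), and these were 4 of the strongest 20, 6 of the strongest 50 and 10 of the strongest 100.

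The 22 genes without a thresholded summit were not all without signal. The pooled list, which by label mixes peaks with background, had an entry within 500 bp at 17 of them, with signals from 5.78 to 38.6 and a median of 30.6, against 11.3 over that list and a lowest value of 41.5 in the thresholded list. The highest were *rps-9* (38.6), *rps-29* (35.9), *rpl-11.2* (35.2), *rpl-16* (33.5) and *rps-0* (32.9), the last of which encodes a surface protein known in mammals as the laminin receptor. No pooled entry stood at *rps-27*, *rpl-42*, *rpl-37*, *rpl-25.1* or *rps-7*. Of the 22, 7 had an entry among the strongest of 1 replicate or the other. At *rps-18* the highest entry of replicate 1, of signal 105, lay 493 bp upstream, near the thresholded summit 540 bp upstream. That of replicate 2, of signal 17.2, lay at another place, 49 bp upstream.

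The genes without a summit more often had a close neighbour upstream by count, with no test made. A protein-coding gene ended within 500 bp upstream on the same strand, an arrangement found in operons, at 7 of the 22 without a summit (*rpl-16*, *rpl-25.1*, *rpl-27*, *rps-2*, *rps-7*, *rps-16* and *rps-17*) and at 1 of the 56 with one, *rpl-19*. Among other protein-coding genes, 3.98% of 3616 with such a neighbour had a summit and 5.54% of 16291 without it. *rps-16* lies 109 bp behind *fib-1*, the gene of the nucleolar protein fibrillarin, and its nearest summit, of signal 75.1, was 148 bp upstream of *fib-1*. By chromosome, a summit stood at 18 of 23 ribosomal protein genes on I, 6 of 10 on II, 13 of 18 on III, 15 of 17 on IV, 4 of 8 on V and 0 of 2 on X. All protein-coding genes gave 7.40%, 4.90%, 6.89%, 8.90%, 3.32% and 2.49% in the same order.

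Other genes of translation ranged from lists with a summit at each gene to lists near the background of all protein-coding genes. Elongation factors bring transfer RNA to the ribosome and move it along the message. Their genes had a summit at 6 of 6, with *eef-1A.1* (signal 104), *eef-1B.2* (104) and *eef-1G* (74.7) highest. Of 6 genes for stalk, ubiquitin fusion and associated ribosomal proteins 3 had one, *rla-1* (78.7), *ubl-1* (74.0) and *ubq-2* (42.5), and *rla-0*, *rla-2* and *rack-1* had none. Genes for mitochondrial ribosomal proteins, which belong to the separate ribosome of that organelle, had one at 10 of 71 (14.1%, 7.83 to 24.0), at a median of 147.5 bp upstream, with *mrps-7* (106), *mrpl-55* (59.7) and *mrps-15* (57.9) highest. That share is nearer to the background than to that of the cytoplasmic ribosome. The peak at *mrpl-49* (52.0) is the one at *rpl-28*, and *mrpl-1* and *mrps-24* share another (51.4). Translation initiation factors, which bring the ribosome to the start codon, had 4 of 35 (11.4%, 4.54 to 26.0), with *eif-3.C* (98.0), *eif-3.D* (47.6) and *eif-1.A* (45.4) highest. Aminoacyl-tRNA synthetases, which load transfer RNA with amino acids, had 4 of 31 (12.9%, 5.13 to 28.9), with *ears-2* (156), *qars-1* (56.3) and *sars-1* (46.1) highest. Nucleolar and ribosome biogenesis genes had 4 of 19 (21.1%, 8.51 to 43.3), with *nol-10* (162), *fib-1* (75.1) and *nol-58* (50.3) highest. The intervals of the last 4 lists lie below that of the ribosomal protein genes, which starts at 61.0. No test between lists was made. Among the genes named for these lists, *mrps-15* and *qars-1* had no entry within 500 bp in the replicate 1 list.

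**Figure D5:**
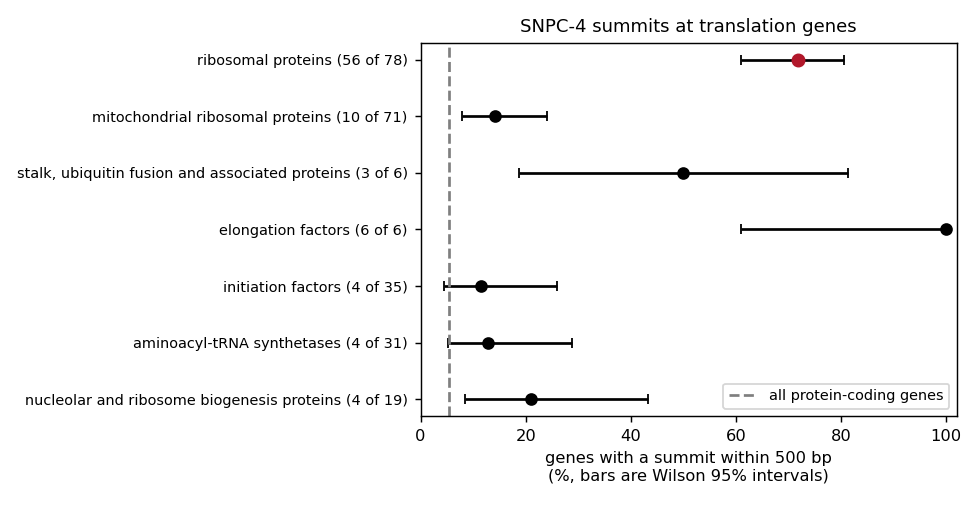
Percent of genes in each list with a thresholded summit within 500 bp of the 5′ end, with Wilson 95% intervals; counts stand beside the names, and the dashed line is the share over all protein-coding genes, 5.51%. Ribosomal proteins (71.8%) and elongation factors (6 of 6) lie far to the right of the line.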

How the data were processed

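SNPC-4 ChIP-seq peak lists of 2 biological replicates were used on build ce11; ce10 lists were not used here. Per the labels of the deposited files, the thresholded list (2345 peaks) was selected by IDR, and the pooled list (30000 entries) and those of replicate 1 (27573) and replicate 2 (30000) were the input to IDR and hold peaks and background. The peak signal in the deposited lists is the authors' peak caller value. The deposited −log10 q values were not used to rank peaks. No aligner, peak caller or cut-off of the IDR is named in these sources.

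Gene positions came from Ensembl release 115 (WBcel235, which is ce11), alternative symbols from RefSeq. A gene counted when a summit lay within 500 bp of its 5′ end on its strand. The nearest summit gave the distance and the strongest gave the signal. Where distances in the whole replicate lists are given, the strongest entry gave the distance too. Nearby snoRNA or tRNA genes overlapped the gene body extended by 500 bp. The genes, lists and alternatives were chosen with earlier results of these data known, and the words, their longer forms, the counts of known motifs at the summits, the count of neighbouring genes and the RefSeq alternative after the data were seen. Named genes were the 25 with the highest signal, the 3 just inside and 3 just outside 500 bp, the 5 highest pooled signals without a summit, genes with a snoRNA gene nearby and the 3 highest of each other list; further ones were named after their values were seen, and 1 gene of the 25 and 1 summit sequence are not reported here, though counts and medians include them. Python 3.11.15, pandas 2.3.3, NumPy 2.4.6, SciPy 1.17.1 and Matplotlib 3.10.9 were used, and the counting was tested on simulated peaks. Intervals are Wilson 95% intervals.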

Additional observations from a re-analysis of the deposited data

How the results depend on the processing

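The median position stayed upstream under every alternative run. With a window of 200 bp the share with a summit was 8.97% (large subunit 10.6%, small 6.45%, with a snoRNA gene nearby 15.4%, pooled list 28.2%, strongest replicate entries 7.69%), the median distance -167 bp, the median signal 66.4 and the number of summits nearer to a structured RNA gene 0. With 1000 bp the shares were 79.5% (80.9%, 77.4%, unchanged at 84.6%, 96.2% and 73.7% in that order). In the stronger part of the list they were 48.7% (48.9%, 48.4% and 69.2%), with a distance of -277.5 bp and a signal of 94.0. Counting peaks that overlap the window moved the small subunit to 77.4%. RefSeq symbols gave 67.7% for the small subunit and 80% with a snoRNA gene nearby, symbols with no dot gave 83.3% with a snoRNA gene nearby, and nearby meaning within 1000 bp gave 87.5%. The strongest 10000 pooled entries gave 91.0%. The cause of these shifts was not tested, though a narrower window or shorter list holds fewer summits by construction. Over all protein-coding genes the share was available only for the thresholded list, 2.59% at 200 bp and 7.48% at 1000 bp. How far the other shares in this paragraph lie above that of all genes is not known.

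With 1 replicate alone the share was 60.3% to 64.1%, that of the large subunit 57.4% to 63.8%, of the small subunit 64.5% in both, with a snoRNA gene nearby 76.9% in both. The median distance was -291 to -284.5 bp, the median signal 41.1 to 54.3 on the replicates' own scale, and 1 to 2 summits were nearer to a structured RNA gene. Of 74 recomputed values, 36 stayed within the spread between replicates. No paired analysis was possible because there was a single group. Depth is unknown, so a gene without a summit may lie below detection. Peak widths of 380 bp at 17 of the 56 genes limit how finely those summits are placed.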

Other observations

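In the strongest 14 of the 55 ribosomal protein peaks another pair of words was common, chosen here after the data were seen as those with the greatest difference in share from the other summits. AAGTGTAT occurred at 4 of these 14 (*rpl-15*, *rpl-35* and *rps-1* among them), against 0 of the 41 weaker ribosomal protein peaks and 0.751% of the 2263 other nuclear peaks. CGCTCCAC occurred at 4 of the 14 (*rpl-12*, *rpl-15* and *rps-1* among them), against 2 of the 41 weaker peaks and 1.59% of the others.

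Symbols differ between annotations. RefSeq gives 17 of the 78 genes another symbol and calls 3 further genes ribosomal, of which *ubl-1*, *rps-27A* in RefSeq and a fusion of ubiquitin with a ribosomal protein, had a summit 181 bp upstream with signal 74.0, and *W01D2.1* and *Y37E3.8* had none. *rpl-2* had no thresholded summit although the longer forms of GGTCTCGC, AAAGGCGC, TGGCCTAA and GTAAATCG all stood within 500 bp upstream of it; its pooled signal was 17.8, with 12.2 in replicate 1 and no entry in replicate 2.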
